A study of Mus musculus with 2 samples.

Results

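Cycling CD8 T cells are here the killer lymphocytes of these tumours that held RNA of genes switched on in dividing cells. They were picked from 2 droplet libraries by a rule on unique molecular identifiers (UMIs, each standing for 1 captured RNA molecule): at least 1 UMI of the CD3 genes Cd3d, Cd3e and Cd3g, at least 1 of the CD8 genes Cd8a and Cd8b1, at most 1 of C1qa, C1qb and C1qc, at most 3 of the tumour-cell genes Hmga2 and Rhox5, and at least 3 of the cell-cycle genes Mki67, Top2a, Cenpf and Cenpe. Of 34471 barcodes with at least 500 UMIs, 300 genes and at most 20% mitochondrial UMIs, 247 met the rule: 66 of 14159 with the control diet and 181 of 20312 with the serine/glycine-free diet. The same clauses without the cell-cycle genes held 300 and 887 CD8 T cells, of which 183 and 567 had 0 UMIs of the 4 cell-cycle genes and are called non-cycling here.

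Both libraries came from subcutaneous tumours grown in mice, 1 library from mice fed a control diet and 1 from mice fed a diet without serine and glycine, as read from the sample codes and the design text. The tumour line, the mouse strain, sex and age, the days on diet and the number of animals pooled in a library were not stated. With 1 library per diet no difference between the diets could be tested. Every interval below covers counting error only, not the spread between animals. Intervals for ratios of RNA levels also leave out the uneven spread of UMIs over cells. In the control and the serine/glycine-free library the kept cells had medians of 11512 and 7570 UMIs, the doublet caller Scrublet marked 4.30% and 13.2% of them, and 87 barcodes occurred in both libraries.

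An activated CD8 T cell divides quickly, and for this it makes nucleotides from serine, glycine and folate one-carbon units as well as from glucose. In tumours, dividing CD8 T cells often carry the inhibitory receptor PD-1 and the transcription factor TOX together with cytotoxic genes. Progress through the cycle shows in RNA: replication genes such as Pcna and Rrm2 peak around S phase, and cyclin B, Cdc20 and Ube2c peak in G2 and mitosis.

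The levels of the genes in the rule are fixed by the choice of cells and describe it. Cd8a stood at 559 CPM (UMIs of the gene per 1000000 UMIs of the members) in the control library and at 533 CPM in the serine/glycine-free one, and at 0.192 and 1.07 CPM in C1q macrophages (at least 5 C1q UMIs, no CD3 UMI). Both Cd8a and Cd8b1 were seen in 51 of 66 and 128 of 181 members. Of genes the rule did not use, Trbc2, a constant region of the T-cell receptor, had a UMI in 63 of 66 and 175 of 181 members, and Cd4 in 2 and 4. The 4 cell-cycle genes together had a median of 9 UMIs per member in each library, and 21 and 65 members held all 4. Just inside the threshold, at exactly 3 UMIs, were 7 and 29 members with median depths of 5081 and 3108 UMIs; just outside it, at exactly 2, were 12 and 29 cells with 3169.5 and 2420. Members had medians of 5301.5 and 3680 UMIs against 1988 and 1587 in non-cycling cells, so the rule picked deeper cells in both libraries. Scrublet marked 2 and 7 members as doublets. Xist, the RNA of the silenced X chromosome in female cells, stood at 982 and 670 CPM in members and at 3.30 and 3.75 CPM in tumour cells (at least 10 UMIs of Hmga2 and Rhox5, no CD3 UMI).

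Markers of other cell types were low in the members. The 10 macrophage markers summed to 301 and 151 CPM, against 35854 and 37164 CPM in C1q macrophages, and the 10 tumour-cell markers to 30.4 and 104 CPM, against 1927 and 1269 CPM in tumour cells. The 6 neutrophil markers summed to 0 and 6.81 CPM, the 8 B and plasma cell markers to 2.77 and 54.5 CPM, the 6 gamma-delta T cell markers to 74.7 and 119 CPM and the 8 NK markers to 218 and 273 CPM. The 8 CD4 and regulatory T cell markers summed to 1051 and 709 CPM, most of it from Ikzf2 (675 and 452 CPM), which CD8 T cells also express. The 6 fibroblast markers summed to 35.9 and 206 CPM and the 6 endothelial markers to 49.8 and 176 CPM. This stroma RNA sat in few cells: 6 of 181 members of the serine/glycine-free library held at least 3 UMIs of these genes (Pecam1 set aside), and with them 214 of its 237 stroma UMIs, while 0 of 66 control members did, which allows a share of up to 4.55% by the limit of 3 counts and 5.44% by the exact interval.

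Members made up a larger share of all cells in the serine/glycine-free library, and a similar share of the CD8 T cells at full depth. They were 0.466% of cells in the control library (exact 95% interval 0.361% to 0.593%) and 0.891% in the other (0.766% to 1.03%), a ratio of 1.91 (1.43 to 2.57). All CD8 T cells stood at 2.12% and 4.37% of cells, a ratio of 2.06 (1.81 to 2.36). Within the CD8 T cells, 22% (17.4% to 27.1%) and 20.4% (17.8% to 23.2%) were members, and this ratio of 0.928 had an interval from 0.696 to 1.25. Non-cycling CD8 T cells were also a larger share of all cells, 1.29% and 2.79%, a ratio of 2.16 (1.83 to 2.57).

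The order of the shares within CD8 T cells turned when shallower cells were left out and the rest were thinned to equal depth. When each CD8 T cell was thinned at random to 2000 UMIs and shallower cells were left out (35.3% of control and 53.6% of serine/glycine-free CD8 T cells), at least 3 cell-cycle UMIs remained in 23.7% of 194 and 32.5% of 412 cells, a ratio of 1.37 (0.975 to 1.96). Over 50 such draws from the same cells the ratio had a median of 1.40 and ran from 1.18 to 1.62, a range that leaves out counting error. With the CD3, CD8 and cell-cycle counts all thinned, the shares were 23.9% of 184 and 32.03% of 359 cells. The C1q, Hmga2 and Rhox5 counts stayed at full depth. This gave a ratio of 1.34 (0.939 to 1.94), with a median of 1.45 over 50 draws. Thinning only the cell-cycle count to 1000 UMIs left out 3% and 10.3% of CD8 T cells. The shares were then 8.59% of 291 and 9.30% of 796 cells, a ratio of 1.08 (0.679 to 1.78). At full depth the serine/glycine-free share was the lower one and at equal depth the higher one, and each interval included 1. Before any thinning, members were 65 of 194 and 168 of 412 CD8 T cells with at least 2000 UMIs. They were 66 of 291 and 181 of 796 of those with at least 1000 UMIs. At 2000 UMIs the serine/glycine-free share was thus already the higher one once shallower cells were left out. No interval was computed for these shares before thinning.

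**Figure D1:**
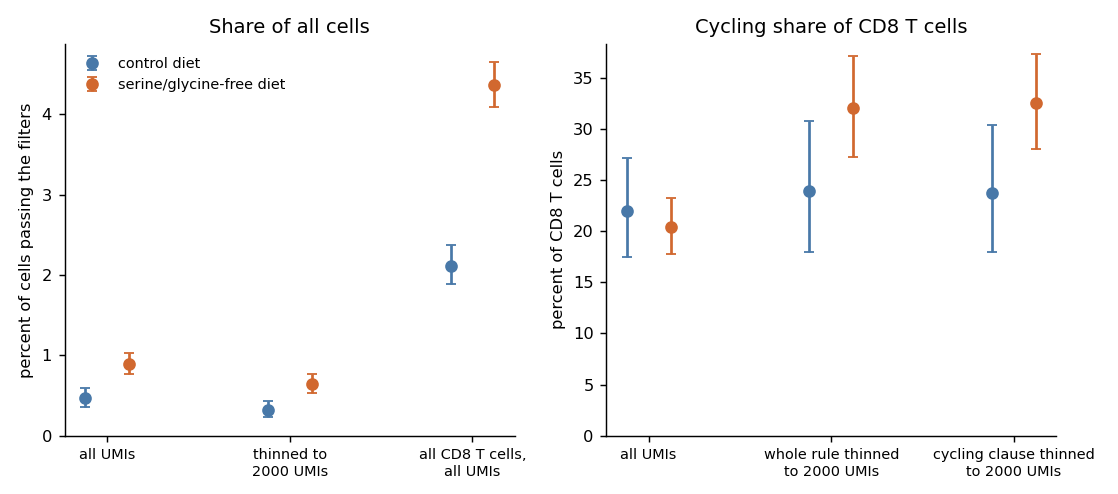
Left, cycling CD8 T cells and all CD8 T cells as a percent of cells passing the filters; right, cycling cells as a percent of CD8 T cells; points are the 2 libraries, bars exact 95% intervals for counting error. The share of all cells is higher with the serine/glycine-free diet (0.891% against 0.466%). The order within CD8 T cells turns between all UMIs (22% and 20.4%) and 2000 UMIs (23.7% and 32.5% for the cycling clause). Cells shallower than 2000 UMIs are left out of the thinned points. Where the whole rule is marked as thinned, only its CD3, CD8 and cell-cycle counts were.

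Cells of other kinds met the same cell-cycle clause. At full depth it was met by 17.3% and 14% of C1q macrophages, by 20% and 12.3% of NK cells and by 39.9% and 49.1% of tumour cells, whose median depths were 13507 and 10192.5 UMIs. At 2000 UMIs it was met by 11.9% and 9.95% of C1q macrophages, by 12.7% and 21.1% of NK cells (125 and 146 cells in all before thinning) and by 17.3% and 23.3% of tumour cells, whose ratio was 1.35 (1.27 to 1.44). Tumour cells thus stood above CD8 T cells (22% and 20.4%) at full depth and below them (23.7% and 32.5%) at 2000 UMIs. At 2000 UMIs, however, only 194 of 300 and 412 of 887 CD8 T cells remained, against 9781 of 9784 and 10619 of 10620 tumour cells. The shares at that depth therefore cover unlike parts of the CD8 T cells and the tumour cells. The NK ratio was 0.616 at full depth and 1.65 at 2000 UMIs, and both intervals included 1. Among CD3-positive, CD8-negative cells with a Cd4 UMI, 1 of 34 and 9 of 76 met the clause at full depth, and 1 of 11 and 7 of 19 at 2000 UMIs.

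At full depth, but not consistently at equal depth, members were more frequent among CD8 T cells with a UMI of an activation gene. At full depth 29.4% and 24.6% of CD8 T cells with Pdcd1, the gene of PD-1, were members, against 11.4% and 14% of those without. With Gzmb the shares were 28.5% and 26.2% against 16.0% and 13.9%, and with Ifng 40.6% and 31.3% against 16.9% and 17.6%. At 2000 UMIs, 65 of 66 and 168 of 181 members remained, but only 91 of 183 and 163 of 567 non-cycling cells. Pdcd1 was then seen in 56.9% and 51.2% of members and in 54.9% and 59.5% of non-cycling cells. Gzmb was then seen in 46.2% and 56.0% of members and in 47.3% and 65.0% of non-cycling cells. Ifng was seen in 21.5% and 16.1% of members and in 13.2% and 21.5% of non-cycling cells. In this single draw all 3 genes were less frequent in members than in non-cycling cells of the serine/glycine-free library. Pdcd1 and Ifng were more frequent in members of the control library. For each gene and library the exact intervals of members and non-cycling cells overlapped, so these orders are not firm.

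Members differed along the cycle, and RNA of mitosis genes made up more of their UMIs with the serine/glycine-free diet. The 30 mitosis genes, which leave out those of the rule, summed to 4621 CPM in the control members and 5916 CPM in the serine/glycine-free ones, against 373 and 446 CPM in non-cycling cells. The 30 DNA replication genes summed to 4032 and 3845 CPM, against 1091 and 1289 CPM in non-cycling cells. More mitosis than replication UMIs were found in 33 of 66 control members (50%, 37.4% to 62.6%) and in 112 of 181 serine/glycine-free members (61.9%, 54.4% to 69.0%), a ratio of 1.24 (0.833 to 1.88). This ratio's interval included 1. Over 50 draws thinned to 2000 UMIs the ratio ran from 1.08 to 1.77. That range shows only the spread of thinning the same cells, not counting error. The clause on Mki67, Top2a, Cenpf and Cenpe itself favours late stages, so stage shares describe members, not all dividing CD8 T cells. It also asks for the same 3 UMIs in both libraries, although control and serine/glycine-free members had median depths of 5301.5 and 3680 UMIs. It can therefore weigh unequally on the libraries.

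**Figure D2:**
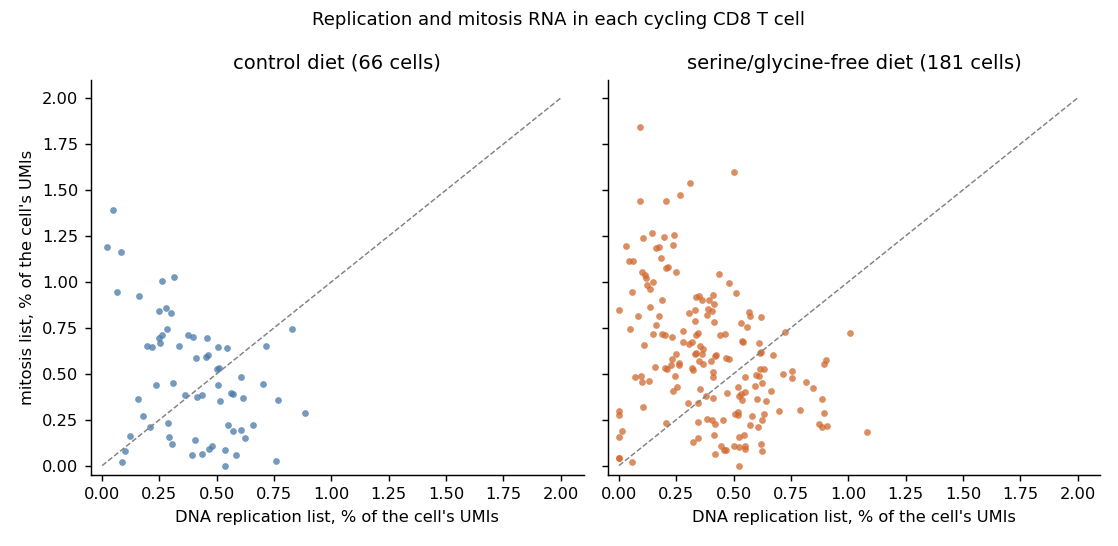
Each point is 1 cycling CD8 T cell; the x axis gives the 30 replication genes and the y axis the 30 mitosis genes as a percent of the cell's UMIs, and the dashed line marks equal values. Above the line are 33 of 66 control cells and 112 of 181 serine/glycine-free cells.

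Of the 30 mitosis genes, 28 were higher and 2 lower in the serine/glycine-free members, with a median log2 ratio (serine/glycine-free over control CPM) of 0.40; among all 8407 genes with a mean of at least 10 CPM, 52.7% were higher, 47.3% lower, and the median was 0.04. The exact counting interval lay above 0 for 7 of the 30 and below 0 for none, against 5.78% and 4.58% of all genes. These shares over all genes are the background for the interval counts of every list below. Ccnb1, cyclin B1, which drives entry into mitosis, stood at 63.6 CPM in control and 129 CPM in serine/glycine-free members, a log2 ratio of 1.03 (0.36 to 1.75). Cdc20, which activates the anaphase-promoting complex, stood at 113 and 189 CPM, and Ube2c, the complex's ubiquitin-conjugating enzyme, at 506 and 706 CPM. Ccnb2, cyclin B2, stood at 188 and 281 CPM and Cenpa, the centromeric histone, at 390 and 578 CPM. The 2 lower genes were the condensin subunit Ncapg (174 and 139 CPM) and the checkpoint gene Mad2l1 (111 and 95.4 CPM), named after their values were seen; both intervals included 0. Ube2s, which lengthens ubiquitin chains for the same complex and is not in the list, stood at 346 and 598 CPM, in tumour cells at 589 and 799 CPM, and in non-cycling CD8 T cells at 146 and 143 CPM. Across 17 other ways of choosing and scaling the members, the mitosis median stayed between 0.30 and 0.50. Single genes were less steady over the 15 settings that recomputed them: Ccnb1 stayed between 0.92 and 1.25, but Ube2c ran from 0.094 to 0.58 and Ccnb2 from 0.051 to 0.69.

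The replication genes were not higher as a group. Of its 30 genes, 11 were higher and 19 lower, with a median of -0.12, and 1 interval lay above and 1 below 0. Lig1, the ligase that joins Okazaki fragments, stood at 177 CPM in control and 102 CPM in serine/glycine-free members, a log2 ratio of -0.79 (-1.29 to -0.29). Dut, which removes dUTP, stood at 487 and 650 CPM, a log2 ratio of 0.42 (0.16 to 0.67). Pcna, the sliding clamp, stood at 401 and 330 CPM, and Rrm2 and Tyms, enzymes of deoxynucleotide synthesis, at 249 and 260 CPM and at 183 and 187 CPM; these intervals included 0. Of 12 measured replication-dependent histone genes, 9 were higher and 3 lower, with Hist1h1b at 498 and 529 CPM; as their mRNAs carry no poly(A) tail, a poly(A) assay captures them poorly.

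Because the mitosis genes were higher as a group, the 120 bases before the start of 4 of them are shown, with the 2 replication genes of highest CPM that hold the E2F form in this window (RefSeq, build GRCm38.p6, 5′ to 3′ on the gene's strand). Capitals mark 3 motifs found by search on both strands: CCAAT (or ATTGG), the core bound by NF-Y, TTTGAA (or TTCAAA), a form of the CHR element of G2 and mitosis genes, and TTCCCGC (or GCGGGAA), a form of the E2F site; no 2 of the matches shown overlap.
Ccnb1, chr13:100786487-100786606, minus strand: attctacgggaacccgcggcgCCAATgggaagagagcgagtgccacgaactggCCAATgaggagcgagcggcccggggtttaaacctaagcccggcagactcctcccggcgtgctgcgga
Cdc20, chr4:118437344-118437463, minus strand: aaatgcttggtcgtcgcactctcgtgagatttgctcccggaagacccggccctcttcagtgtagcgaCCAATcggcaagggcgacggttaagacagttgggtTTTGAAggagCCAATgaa
Ube2c, chr2:164769809-164769928, plus strand: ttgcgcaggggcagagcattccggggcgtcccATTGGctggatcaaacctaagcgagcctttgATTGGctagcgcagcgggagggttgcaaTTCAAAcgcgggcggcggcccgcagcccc
Ccnb2, chr9:70421555-70421674, minus strand: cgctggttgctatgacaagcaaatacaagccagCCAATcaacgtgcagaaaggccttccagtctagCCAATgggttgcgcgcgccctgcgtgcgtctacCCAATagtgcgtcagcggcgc
Rrm1, chr7:102441575-102441694, plus strand: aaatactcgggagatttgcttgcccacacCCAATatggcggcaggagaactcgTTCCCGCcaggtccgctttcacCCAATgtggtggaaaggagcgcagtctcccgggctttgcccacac
Rpa2, chr4:132768240-132768359, plus strand: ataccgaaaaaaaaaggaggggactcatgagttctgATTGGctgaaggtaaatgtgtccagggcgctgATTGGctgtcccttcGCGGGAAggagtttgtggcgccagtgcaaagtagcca
CCAAT occurred 2 times in each of the windows of Ccnb1, Cdc20 and Ube2c and 3 times in that of Ccnb2. The windows of the replication genes Rrm1 and Rpa2 also held it 2 times each. TTTGAA occurred once each in Cdc20 and Ube2c. Within 250 bases before the start, CCAAT was present in 18 of 25 mitosis promoters and 16 of 26 replication promoters found in the table, against 34.5% of all 27025 promoters, and in 3 of 16 promoters of cytotoxicity genes. TTTGAA was present in 8 of 25 and 4 of 26, against 16.3% of all. TTCCCGC was present in 0 of 25 mitosis promoters and 8 of 26 replication promoters, against 3.84% of all. Rrm1, shown for its E2F form, stood at 169 and 155 CPM in the members, and Rpa2 at 130 and 131 CPM. These matches are letters in a window, not measured binding.

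Against non-cycling cells of the same library, the members' profile was that of division, as the rule fixes; these values describe the choice of cells and nothing is read from them. At a mean of at least 50 CPM, 4.23% of 3713 genes were at least 2-fold higher in members in both libraries and 0.808% at least 2-fold lower. Among the highest outside the rule were Nusap1, Knl1, Aspm, Hmmr, Bub1, Cep55, Cdca8, Spc24, Bub1b, Ube2c and Birc5, nearly all parts of the spindle, kinetochore or midbody. Among the lowest were Lef1, a factor of naive and memory T cells, Ly6a and Ly6c2. Lef1 stood at 22.1 and 32.7 CPM in members and at 80.4 and 135 CPM in non-cycling cells, and Ly6c2 at 138 and 79.0 CPM against 436 and 239 CPM.

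PD-1 and TOX marked most members in both libraries, at levels that differed little, and at equal depth most non-cycling CD8 T cells too. Pdcd1 stood at 456 and 414 CPM, a log2 ratio of -0.14 (-0.42 to 0.14), and had a UMI in 52 of 66 and 132 of 181 members, against 1 of 985 and 1 of 1239 C1q macrophages (median depths 5035 and 3502 UMIs). Tox stood at 951 and 1082 CPM and was seen in 55 and 156 members. Both were seen together in 49 of 66 and 119 of 181 members, and Pdcd1, Tox, Gzmb and Prf1 all together in 30 and 68. Tcf7, the factor of naive and stem-like T cells, had a UMI in only 7 of 66 and 7 of 181 members. Klrg1, a receptor of short-lived effector cells, had a UMI in 0 of 66 and 0 of 181 members. This allows a share of cells with a UMI of up to 4.55% and 1.66% by the limit of 3 counts. By the exact interval it allows up to 5.44% and 2.02%. In non-cycling cells Klrg1 had a UMI in 0 of 183, a limit of 1.64% by 3 counts, and in 2 of 567.

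Of 19 measured inhibitory receptor and TOX genes, 7 were higher and 12 lower, with a median of -0.14; 3 intervals lay above and 4 below 0. Entpd1, the ectonucleotidase CD39, stood at 144 and 225 CPM and Cd160 at 63.6 and 108 CPM. Rgs16, a brake on G-protein signals, stood at 183 and 81.8 CPM, Nr4a3 at 60.8 and 30.0 CPM and Bhlhe40 at 329 and 222 CPM. Ctla4 stood at 382 and 350 CPM. In non-cycling cells Entpd1 was also higher (134 and 278 CPM), while Rgs16 was close (129 and 115 CPM).

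The cytotoxic genes showed no common direction. Of 16 measured, 7 were higher and 9 lower, with a median of -0.11 that ran from -0.38 to 0.20 over the other settings; 3 intervals lay above and 5 below 0. Gzmb, granzyme B, stood at 810 and 1004 CPM, a log2 ratio of 0.31 (0.11 to 0.51), and was seen in 41 of 66 and 123 of 181 members; when members were chosen after thinning to 2000 UMIs the ratio was -0.15. Prf1, the pore-forming perforin, stood at 1159 and 862 CPM, a log2 ratio of -0.43 (-0.61 to -0.24). Granzymes C to G are made by strongly activated killer cells, and here they belonged to a minority of members: any of Gzmc, Gzmd, Gzme, Gzmf and Gzmg had a UMI in 22 of 66 and 56 of 181. In the control library the 3 highest cells held 370 of the 610 UMIs of these 5 genes, and in the serine/glycine-free one 361 of 851. Gzmf stood at 910 and 496 CPM, with a log2 ratio of -0.88 that ran from -3.22 to -0.35 over 15 settings, and Gzmc at 218 and 85.8 CPM, while Gzme stood at 96.8 and 176 CPM, a log2 ratio of 0.86 that was -0.96 when members were chosen after thinning. These neighbouring granzymes are close copies, so reads may be shared among them. Gzma stood at 22.1 and 155 CPM but was seen in 2 and 15 members only.

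Interferon-gamma in the control members came mostly from 1 cell. Ifng stood at 583 and 138 CPM, a log2 ratio of -2.08 (-2.44 to -1.74), yet it had a UMI in 26 of 66 and 57 of 181 members, or 39.4% and 31.5%. A single control cell of 8413 UMIs held 156 of the 211 control Ifng UMIs, along with 73 UMIs of Ccl3, 124 of Ccl4 and 51 of Xcl1, and ranked first for all 4; Scrublet did not mark it. It had 0 Gzmb and 8 Prf1 UMIs and 9 UMIs of the 4 cell-cycle genes. Without the highest cell of each library the Ifng ratio was -0.28. In the same way, Ccl3 stood at 329 and 73.6 CPM with a ratio of -2.16 (-1.26 without the highest cells), Ccl4 at 614 and 301 CPM with -1.03 (-0.04, and 1.19 when members were chosen after thinning), and Xcl1 at 213 and 17.7 CPM with -3.59 (-2.40). Lyz2, a macrophage gene, stood at 224 and 58.6 CPM with a ratio of -1.93 that was 0.088 without the highest cells.

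**Figure D3:**
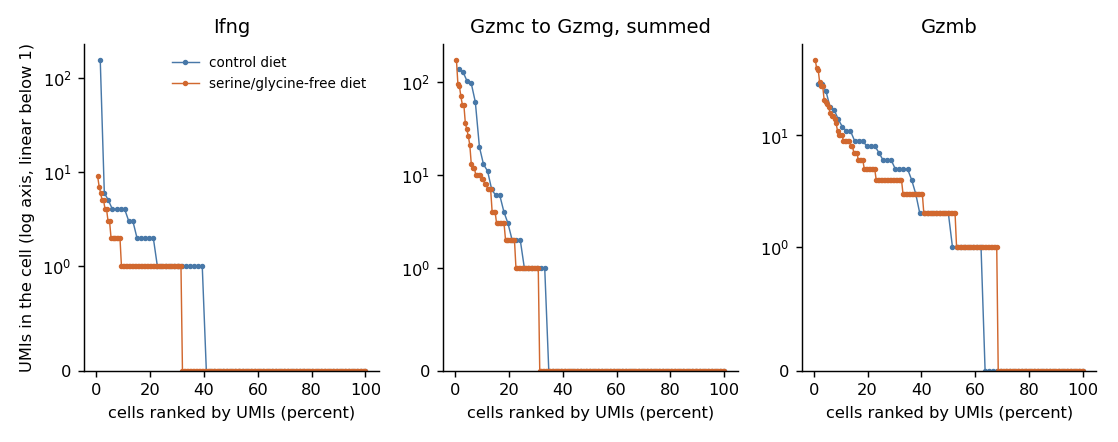
UMIs per cell of Ifng, of Gzmc to Gzmg summed and of Gzmb, with the cells of each library ranked from high to low; the x axis is the rank in percent and the y axis is logarithmic above 1 and linear below. A single control cell stands at 156 Ifng UMIs, with the highest serine/glycine-free cell at 9, while Gzmb is spread over 62.1% and 68.0% of cells.

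Ccl5 was higher in the serine/glycine-free library and was spread over many cells. This chemokine of memory and effector T cells stood at 216 CPM in control and 546 CPM in serine/glycine-free members, a log2 ratio of 1.34 (0.99 to 1.71), which was 1.53 without the highest cell of each library. It had a UMI in 37.9% and 64.6% of members, and at 2000 UMIs in 23.1% and 51.8%. Non-cycling cells held more in both libraries, 765 and 1463 CPM. In C1q macrophages Ccl5 stood at 20.0 and 127 CPM, so its higher level with the serine/glycine-free diet was not limited to CD8 T cells. Of the 9 measured T-cell cytokines and chemokines, 2 were higher and 7 lower, with a median of -0.59 that ran from -0.73 to -0.04 over the other settings. Spp1 had a UMI in 93.9% and 87.8% of members (1734 and 1613 CPM), but also in 27.8% of 18 and 45.1% of 266 B cells, while tumour cells held 10504 and 7956 CPM. NK cells held 6123 and 5917 CPM, with a UMI in 81.6% and 66.4% of them.

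Of 18 co-stimulation and cytokine receptor genes, 11 were higher and 7 lower, with a median of 0.13; 3 intervals lay above and 3 below 0. Il12rb2, a chain of the interleukin-12 receptor, stood at 133 and 304 CPM, a log2 ratio of 1.19 (0.74 to 1.68), and the interleukin-18 receptor chains Il18r1 and Il18rap at 144 and 252 CPM and at 196 and 294 CPM. Il21r, the interleukin-21 receptor, stood at 96.8 and 40.9 CPM, a log2 ratio of -1.24 (-1.997 to -0.50), and Tnfrsf9, the co-stimulatory receptor 4-1BB, at 758 and 615 CPM. In non-cycling cells Il12rb2 stood at 202 and 304 CPM and Il21r at 102 and 95.8 CPM.

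Of 12 measured genes of naive and memory T cells, 5 were higher and 7 lower, with a median of -0.36; 1 interval lay above and 4 below 0. Bcl2, which protects T cells from death, stood at 1054 and 695 CPM, a log2 ratio of -0.60 (-0.79 to -0.41). Slamf6, a receptor of stem-like cells, stood at 58.1 and 19.1 CPM, a log2 ratio of -1.61 (-0.90 without the highest cells), and Il7r, the interleukin-7 receptor, at 147 and 104 CPM. In non-cycling cells Bcl2 stood at 1308 and 1145 CPM and Il7r at 175 and 287 CPM.

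Among the 9 measured genes of serine and glycine synthesis and breakdown, 5 were higher and 4 lower, with a median of 0.02, and Gldc alone had an interval that excluded 0. Gldc, the glycine decarboxylase that breaks glycine down in mitochondria, stood at 63.6 CPM in control and 161 CPM in serine/glycine-free members, a log2 ratio of 1.34 (0.68 to 2.05), with a UMI in 17 of 66 and 73 of 181 cells. It kept this direction at 1.11 to 1.64 over the 15 settings in which it was recomputed. In non-cycling CD8 T cells it stood at 94.98 and 149 CPM. In CD3-positive, CD8-negative cells with a Cd4 UMI it stood at 14.4 and 38.6 CPM, from 1 of 34 and 4 of 76 cells. In cells without CD3 it was scarcer: 1.89 and 0.653 CPM in tumour cells, 0 and 0.429 CPM in C1q macrophages, and 0 UMIs in the 18 and 266 B cells and the 125 and 146 NK cells. The enzymes that make serine from glucose showed no such difference: Phgdh stood at 136 and 134 CPM, Psat1 at 77.4 and 74.9 CPM and Psph at 80.2 and 91.3 CPM. Shmt2, which turns serine into glycine in mitochondria, stood at 47.0 and 47.7 CPM and Shmt1, its counterpart in the cytosol, at 30.4 and 20.4 CPM. Members held more Phgdh than non-cycling cells in both libraries (60.9 and 54.2 CPM), and tumour cells held 296 and 303 CPM.

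Of 8 measured folate one-carbon genes, 4 were higher and 4 lower, and no interval excluded 0. Mthfd2, the mitochondrial enzyme most tied to dividing cells, stood at 136 and 173 CPM, a log2 ratio of 0.35 (-0.13 to 0.86), against 65.8 and 54.2 CPM in non-cycling cells. Mthfd1 stood at 52.5 and 34.1 CPM, Mthfd1l at 122 and 138 CPM and Mat2a, which makes S-adenosylmethionine, at 149 and 147 CPM. Of 20 measured ATF4 targets and aminoacyl-tRNA synthetases, genes that respond to amino-acid shortage, 12 were higher and 8 lower, with a median of 0.06 and no interval excluding 0; Atf4 itself stood at 111 and 117 CPM. Of 10 amino-acid transporters 4 were higher and 6 lower, again with no interval excluding 0. Of 19 purine and pyrimidine genes 11 were higher and 8 lower.

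**Figure D4:**
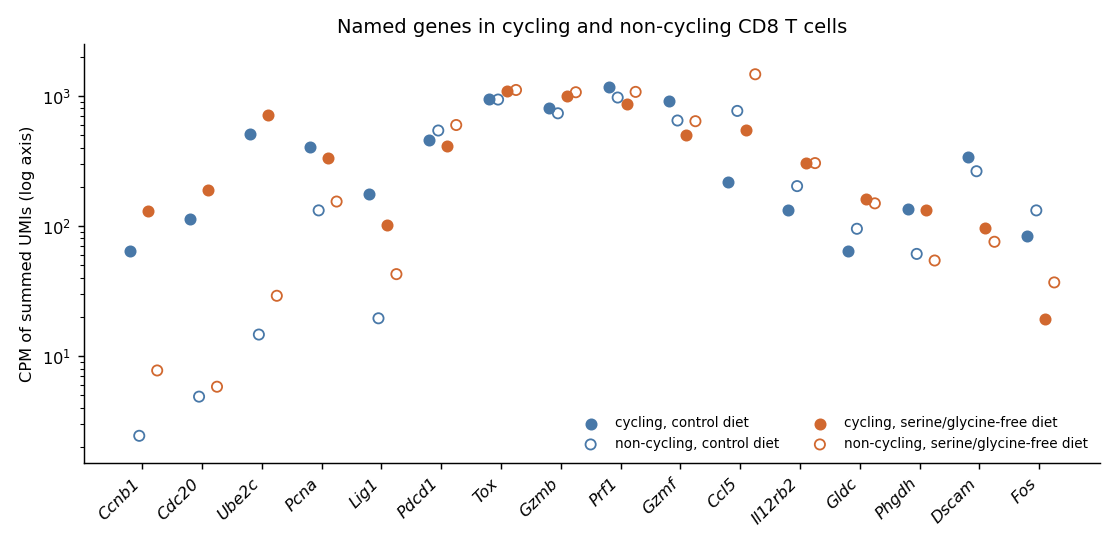
CPM of summed UMIs on a log axis for 16 named genes; filled points are cycling and open points non-cycling CD8 T cells, blue the control and orange the serine/glycine-free library. Ccnb1, Cdc20, Ccl5, Il12rb2 and Gldc are higher and Lig1, Dscam and Fos lower in serine/glycine-free members, while Pdcd1 (456 and 414 CPM) and Phgdh (136 and 134 CPM) are close.

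Glycolysis and hypoxia genes were more often lower than higher, mostly by small amounts. Of 20 measured genes of glucose uptake, glycolysis and lactate, 6 were higher and 14 lower, with a median of -0.18 that ran from -0.22 to -0.09 over the other settings; 1 interval lay above and 2 below 0. Tpi1 stood at 644 and 478 CPM and Pgam1 at 376 and 279 CPM, while Ldha, which makes lactate, stood at 791 and 715 CPM and Gapdh at 3006 and 3173 CPM. Of 16 hypoxia genes 5 were higher and 11 lower, with a median of -0.29; Hilpda stood at 171 and 99.5 CPM and Fam162a at 183 and 109 CPM. In non-cycling cells the same 2 hypoxia genes stood at 153 and 117 CPM and at 185 and 121 CPM.

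Genes of the response to interferon-gamma were more often lower than higher, with few intervals that excluded 0. Of 32 genes 11 were higher and 21 lower, with a median of -0.08 that ran from -0.18 to -0.02 over the other settings. Of their intervals, 2 lay above and 3 below 0. B2m, beta-2 microglobulin, which pairs with every class I heavy chain, stood at 3028 and 2360 CPM and Irf8 at 420 and 223 CPM, while the heavy chains H2-K1 (2063 and 2104 CPM) and H2-D1 (4026 and 4250 CPM) differed little. Of 26 type I interferon genes 10 were higher and 16 lower. Of 13 measured writers and erasers of lactyl and acetyl marks, 8 were higher and 5 lower, and Kat2b alone had an interval that excluded 0 (94.0 and 166 CPM).

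**Figure D5:**
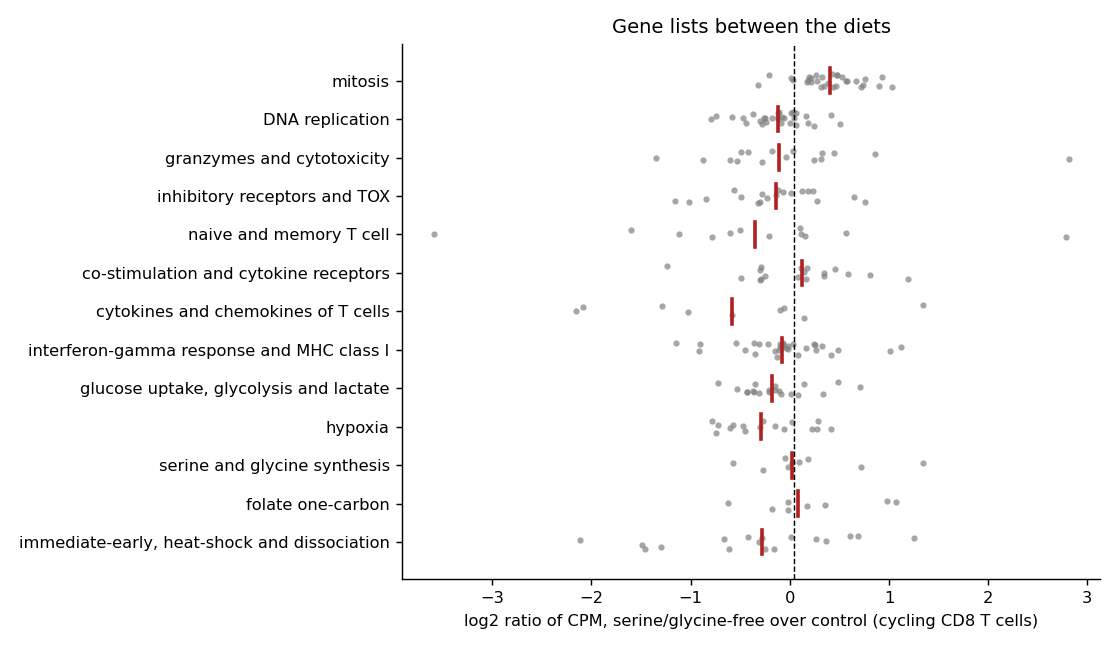
Each grey point is 1 gene's log2 ratio of CPM, serine/glycine-free over control, in cycling CD8 T cells; red bars are list medians and the dashed line is the median of all measured genes (0.04); genes with 0 UMIs in 1 library are left out. The mitosis list lies to the right (median 0.40), and the replication list is close to 0 (-0.12).

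Over all genes with a mean of at least 50 CPM, 33 of 3768 (0.876%) were at least 2-fold higher in the serine/glycine-free members and 42 (1.11%) at least 2-fold lower. Besides Ccl5, Il12rb2 and Gldc, the firmest higher genes included Fth1, ferritin heavy chain (1656 and 3033 CPM), Trbc2, a T-cell receptor constant region (1040 and 1842 CPM), Nrgn (351 and 646 CPM), Zfp36l2 (415 and 749 CPM) and Adamts6 (210 and 398 CPM). Fth1 was also higher in tumour cells (6429 and 8034 CPM), C1q macrophages and B cells. In non-cycling CD8 T cells Trbc2 stood at 1413 and 2164 CPM, Nrgn at 239 and 479 CPM and Adamts6 at 324 and 448 CPM. Zfp36l2 was higher in every other cell class too, with 718 and 842 CPM in non-cycling CD8 T cells and 476 and 929 CPM in NK cells. Trbc1, a near copy of Trbc2, stood at 1150 and 1275 CPM, and reads may be shared between them. Sparc, a matrix gene, had 0 UMIs in control and 156 UMIs (213 CPM) in 15 serine/glycine-free members, and Igfbp7 stood at 35.9 and 181 CPM; both are genes of the stroma, whose markers sat in few members.

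The firmest lower genes, the Ifng group aside, were Dscam, AY036118, Gzmc, Plac8 and Ctla2a. Dscam, a cell adhesion gene, stood at 340 and 96.7 CPM, a log2 ratio of -1.81 (-2.26 to -1.38), and was seen in 47.0% and 16.0% of members. It was also lower in non-cycling CD8 T cells (263 and 75.5 CPM) and NK cells (364 and 188 CPM), and near 0 in tumour cells and C1q macrophages. AY036118 stood at 523 and 206 CPM, and was lower in each of the 6 other cell classes too, tumour cells included (149 and 57.4 CPM). Plac8 stood at 830 and 420 CPM and Ctla2a at 517 and 264 CPM. Both were also lower in non-cycling CD8 T cells, Plac8 at 704 and 427 CPM and Ctla2a at 925 and 589 CPM.

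Immediate-early genes, which respond within minutes to signals and to tissue handling, were more often lower. Of 17 measured genes of immediate-early and heat-shock responses, 6 were higher and 11 lower, with a median of -0.28, and 7 intervals lay below 0 against 1 above. Over all measured genes 4.58% of intervals lay below 0 and 5.78% above. Fos stood at 83.0 and 19.1 CPM, Jun at 127 and 46.3 CPM and Junb at 371 and 243 CPM. Fos was also lower in non-cycling CD8 T cells (132 and 36.8 CPM) and tumour cells (59.5 and 35.9 CPM), but was higher in NK cells (54.2 and 75.8 CPM) and close in C1q macrophages (518 and 495 CPM). Ribosomal protein genes were lower in 71 of 80, with a median of -0.26, and by about the same in non-cycling cells (-0.25). Cyclin D2, Ccnd2, stood at 218 and 123 CPM, and Rptor, the mTORC1 subunit, at 158 and 66.8 CPM, a log2 ratio of -1.24 (-1.82 to -0.66), against 92.5 and 103 CPM in non-cycling cells. Whether differences in handling or depth between the libraries had a part in these values was not tested.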

How the data were processed

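Gene expression was measured by droplet single-cell RNA sequencing in 1 library per diet. The values used are counts of unique molecular identifiers per gene and barcode, deposited by the authors as filtered matrices of 32285 genes. Per the file headers the matrices were written by Cell Ranger 7.0.1, while the submitters' processing notes name Cell Ranger 2.2.2 and mm10; the annotation, and whether intronic reads were counted, were not stated. The labels' extraction text speaks of human heart tissue, which goes against the mouse tumour labels and the mouse genes of the files, so library preparation was not taken from it.

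Cells were kept at 500 UMIs, 300 genes and at most 20% mitochondrial UMIs, and the members were picked by the stated rule, with no clustering. Kept cells held 172880148 and 173173849 UMIs, and members 361620 and 733923. Doublets were called with Scrublet (scanpy 1.11.5), not removed, and left out in an alternative. UMIs were summed over members of a library and scaled to CPM, and genes at a mean of at least 10 CPM counted as measured. Log2 ratios took no pseudocount. Ratios have exact 95% conditional binomial intervals and shares exact Clopper-Pearson ones (scipy 1.17.1); all cover counting error only. A share of 0 was given the limit that 3 counts allow. Thinning drew UMIs without replacement. The sums, ratios and intervals were tested on simulated sums drawn without spread between cells. That test cannot show that the intervals hold where a gene's UMIs sit in few cells.

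The members and lists were chosen with earlier results of these data known. Genes were named by rule: the markers and selection genes, in each list up to 6 genes whose interval lay farthest from 0 and otherwise up to 4 of highest level, the 12 highest and 12 lowest between diets (mean of at least 100 CPM) and between cycling and non-cycling cells, and the measured serine, glycine and folate genes; 1 gene so chosen is not reported here. Cd4, Cd274, Gzmg, Klrg1, Mad2l1, Ncapg, Rpa2, Rrm1, Tcf7 and Xist fall outside it and were chosen after their values were seen, or for their sequence. Alternatives changed the thresholds, the doublet and top cells, the pseudocount and the depth.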

Additional observations from a re-analysis of the deposited data

How the results depend on the processing

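No paired analysis was possible because there was 1 library per diet, and no replicate could be left out. Nothing here could be tested, and depth limits the members most. There were 66 control cells, and 36 and 109 cells when the CD3, CD8 and cell-cycle clauses were applied after thinning to 2000 UMIs. That alternative was chosen after seeing the data. The count of genes at least 2-fold higher, 33, was 19 with 10 CPM added, 67 without the highest cell of each library, 247 at a mean of at least 20 CPM, 8 at 100 CPM and 108 after thinning. The count lower, 42, was 182 at 20 CPM, 14 at 100 CPM and 69 after thinning. The ratio for the share of CD8 T cells, 0.928 at full depth, was 1.38 at 1000 UMIs and 1.34 at 2000 UMIs, with shallower cells left out. With only the cell-cycle count thinned, this ratio was 1.37 at 2000 UMIs but 1.08 at 1000 UMIs. The ratio for the share of all cells was 2.70 at 1000 UMIs. The replication median was -0.26 with at least 2 CD8 UMIs, and the interferon-gamma median -0.18 after thinning. Lyz2 turned to 0.24 with at least 2 CD8 UMIs, 0.58 without doublets, 0.088 without the highest cells and 1.41 after thinning. Ccl4 turned to 0.12 with no C1q UMI or without the cell richest in Ifng, and to 1.19 after thinning. Gzmb turned to -0.15 and Gzme to -0.96 after thinning. Of 476 list medians recomputed, 5 more left the interval of the median at the settings used. Why the values moved was not tested.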

Other observations

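Some gene groups of the cycling CD8 T cells belong to no comparison above. Of 24 nuclear genes of the respiratory chain, 11 were higher and 13 lower in the serine/glycine-free library, with a median log2 ratio of -0.01. Of 23 measured genes of MYC, mTOR and ribosome biogenesis, 12 were higher and 11 lower. Of 15 measured glutathione and redox genes, 6 were higher and 9 lower, with a median of -0.06. Of 11 measured glucocorticoid response genes, 7 were higher and 4 lower, with a median of 0.33 that ran from -0.062 to 0.59 over 17 settings. Cd274, the gene of PD-L1, stood at 102 and 80.4 CPM in the members, and its interval included 0.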
